A study of Mus musculus with 18 samples.

Results

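Autophagy and lysosome genes were followed in liver RNA of mice given asparaginase or PBS at 3 ages. The set held 42 genes taken by name from the deposited count table of 37315 genes, and all 42 were among the 16213 genes that passed the filter on low counts. By role they were 2 receptors for cargo, 5 genes of the ATG8 family, 9 genes that start and expand the autophagosome, 7 genes of the conjugation machinery, 2 transcription factors, 4 lysosomal membrane proteins, 8 genes for enzymes and a sterol carrier inside the lysosome, 3 subunits of the proton pump and 2 receptors for mitochondria. The 18 libraries formed 6 groups of 3, all from C57BL/6J mice that had been on this background for at least 8 generations. Asparaginase (Elspar), a bacterial enzyme used against leukaemia that breaks down asparagine in the blood, was injected into the abdomen once a day at 3 IU per g of body weight, and PBS was injected in the same volume. Mice of 2 and 16 weeks received 7 injections and mice of 8 weeks received 8, and liver was taken 7.5 h after the last one. Every group held both sexes by its labels, in unequal numbers. At 8 and 16 weeks PBS groups held more females and asparaginase groups more males, and at 2 weeks it was the reverse. Log2 fold changes below allow for the labelled sex, while levels per library and their overlap do not. The labels name 3 mice per group but tie no library to an animal, so p-values measure the spread between libraries.

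Autophagy encloses a portion of the cytoplasm in a membrane that closes into the autophagosome, fuses with the lysosome and has its contents digested. The lysosome, acidified by a proton pump and filled with hydrolases, returns amino acids, sugars and lipids to the cell. In liver this recycling is known to increase on fasting, when amino acids released by digestion feed glucose production, and TFEB and TFE3 are known as transcription factors that turn on lysosomal genes when they move into the nucleus. The question put to the data was whether repeated loss of asparagine went with more RNA from these recycling genes. Only RNA was measured: the lipidation of LC3, the turnover of autophagosomes and the activity of lysosomal enzymes were not.

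RNA of the set was abundant enough to measure in every library, the lowest count of a member being 71, for Atg10, the E2-like enzyme that joins ATG12 to ATG5. Levels are in CPM, the usual unit of counts relative to library size, here after TMM scaling. Divided by the length of the principal transcript, Lamp1, a coat protein of the lysosomal membrane, averaged 214 CPM per kb in PBS livers of 8 weeks, and Tfeb averaged 2.70 CPM per kb there. Atg10 was the lowest on that scale in the same livers, at 1.99 CPM per kb. Counts of 15 members overlap exons of another gene, and since the use of strand in counting is not given in the sources used here, these are uncertain to that extent: Sqstm1, Map1lc3b, Gabarapl1, Becn1, Atg14, Atg9a, Lamp1, Npc1, Ctsb, Ctsd, Ctsl, Ctsa, Hexa, Atp6v1h and Bnip3.

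Promoter windows from the RefSeq table (GRCm38.p6), running from 250 bases before to 50 bases after each gene start, were found for 33 of the 42 genes. They were searched on both strands for 3 motifs: CACGTG, the core bound by TFEB and TFE3; TCACGTGA, a longer form that contains CACGTG and lies within the element common to lysosomal genes; and TGATGNAA, the core of the elements bound by ATF4 in the amino acid response. CACGTG stood in 13 of the 33 genes with a window (39.4%), and in 11.1% of the 11468 tested genes with one. TCACGTGA stood in 6 (18.2%, against 2.06% of tested genes): Atg3, Mcoln1, Ctsd, Ctsa, Atp6v0d1 and Atp6v1a. TGATGNAA stood in 2 (6.06%, against 2.96%): Ctsl and Atp6v0d1. A match is a run of letters in this window and says nothing of binding. RefSeq starts can differ from those of GENCODE. The windows of Atg7 and Ctsl, both counted for CACGTG, lie wholly inside the gene as GENCODE places it. The Atg7 window begins at 114670846 on chromosome 6, and the GENCODE gene begins at 114643097. The sequences below are those of Ctsl, the gene with the highest rise under asparaginase; of Sqstm1, the receptor with the smallest p between ages; of Mcoln1 and Atp6v0d1, which hold the longer form; and of Lamp1, which holds CACGTG 4 times. Each reads 5′ to 3′ along its gene, and capitals mark CACGTG and TGATGNAA on either strand. The windows are chr13:64370471-64370770, minus strand; chr11:50210771-50211070, minus strand; chr8:3500269-3500568, plus strand; chr8:105566015-105566314, minus strand; and chr8:13158911-13159210, plus strand.
Ctsl: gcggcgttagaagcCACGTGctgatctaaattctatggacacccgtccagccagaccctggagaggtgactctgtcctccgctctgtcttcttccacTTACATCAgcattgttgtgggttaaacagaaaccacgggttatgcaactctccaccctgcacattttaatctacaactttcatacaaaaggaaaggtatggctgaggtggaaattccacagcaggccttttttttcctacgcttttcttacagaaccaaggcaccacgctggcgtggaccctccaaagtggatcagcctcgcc
Sqstm1: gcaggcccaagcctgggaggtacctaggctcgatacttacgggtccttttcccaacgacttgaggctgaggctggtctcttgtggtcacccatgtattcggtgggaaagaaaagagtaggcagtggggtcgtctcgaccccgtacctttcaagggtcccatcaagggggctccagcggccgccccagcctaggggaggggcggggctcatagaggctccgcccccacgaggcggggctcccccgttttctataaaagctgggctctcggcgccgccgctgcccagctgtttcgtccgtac
Mcoln1: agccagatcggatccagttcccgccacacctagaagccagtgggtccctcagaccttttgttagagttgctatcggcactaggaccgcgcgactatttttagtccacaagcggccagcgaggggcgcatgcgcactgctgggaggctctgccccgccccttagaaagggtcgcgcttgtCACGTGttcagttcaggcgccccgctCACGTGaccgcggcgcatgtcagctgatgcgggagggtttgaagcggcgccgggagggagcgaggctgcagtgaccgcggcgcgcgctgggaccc
Atp6v0d1: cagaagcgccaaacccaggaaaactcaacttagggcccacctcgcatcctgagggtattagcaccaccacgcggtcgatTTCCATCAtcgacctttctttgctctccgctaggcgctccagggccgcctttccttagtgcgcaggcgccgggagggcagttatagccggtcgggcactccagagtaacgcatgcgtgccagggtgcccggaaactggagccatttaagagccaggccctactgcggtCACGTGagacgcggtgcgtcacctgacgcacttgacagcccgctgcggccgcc
Lamp1: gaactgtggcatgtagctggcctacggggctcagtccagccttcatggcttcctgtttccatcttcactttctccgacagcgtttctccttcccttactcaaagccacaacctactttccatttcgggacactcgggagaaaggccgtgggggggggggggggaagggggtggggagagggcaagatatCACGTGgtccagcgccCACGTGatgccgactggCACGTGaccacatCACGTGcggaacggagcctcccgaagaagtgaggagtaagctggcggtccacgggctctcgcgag
Both capital runs of Ctsl lie well before the RefSeq start, and the GENCODE model of Ctsl begins farther upstream than that start. Neither motif occurs in the Sqstm1 window, so it has no capitals.

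Some libraries stood apart. Total counts ran from 24690871 to 46949361, and the 21 major urinary protein genes took 0.046 to 0.579% of them at 2 weeks and 5.39 to 47.9% in adults. All 8 hepatocyte markers were detected in each group, summing to 57250.0 CPM or more in every library. The libraries of PBS replicates 1 and 2 and asparaginase replicate 3 of 2 weeks held both Xist and Y-linked transcripts. Summed markers of squamous epithelium reached 845 and 443.6 CPM in asparaginase replicates 1 and 2 of 8 weeks, against 2.25 to 8.03 CPM in PBS livers of that age. The treatment was visible at each age in Asns, asparagine synthetase, with 30.7, 26.4 and 19.4 CPM in asparaginase livers of 2 weeks against 3.47, 3.93 and 3.69 CPM in PBS livers. Asns had log2 fold changes of 2.85, 1.80 and 4.27 at 2, 8 and 16 weeks, each called by the test described next.

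Under asparaginase 3 of the 42 genes changed in the mean over the 3 ages, 2 higher and 1 lower. Ctsl, the gene of the protease cathepsin L, rose with a mean log2 fold change of 0.95, and Npc1, which exports cholesterol from the lysosome, rose by 0.53. Atp6v1h, a regulatory subunit of the proton pump, had a mean log2 fold change of -0.29 and fell. In edgeR's quasi-likelihood test with Benjamini-Hochberg adjustment over all 16213 genes, at an adjusted p under 0.05, these 3 were 7.14% of the set, and 5.41% of all genes passed, 2.55% higher and 2.86% lower. The median mean effect of the 42 genes was -0.04 on the log2 scale, with 17 genes above 0 and 25 below, and the median over all genes tested was 0.00459. At an unadjusted p under 0.05 there were 12 members (28.6%), 5 higher and 7 lower, against 22.4% of all genes. limma-voom called the same 3, and 5.7% of all genes. DESeq2 called 6, adding Sqstm1, Hexa and Map1lc3b as higher, and 10.9% of the genes to which it gave an adjusted p. The count fell to 1, Ctsl, without the 3 libraries of mixed sex (0.564% of all genes called), without the 2 libraries with squamous transcripts (0.508%), without asparaginase replicate 1 of 8 weeks alone (1.4%) or without asparaginase replicate 3 of 16 weeks (1.21%).

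**Figure D1:**
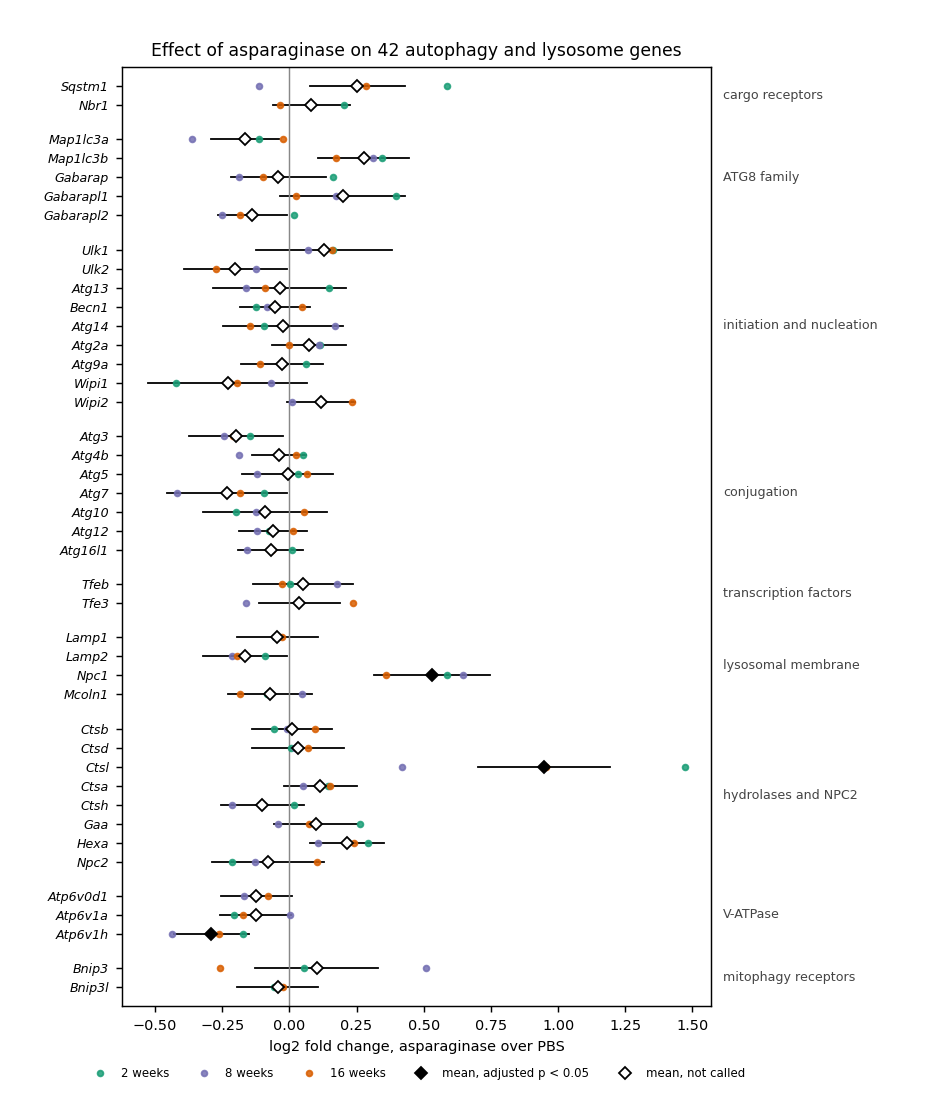
Log2 fold change of asparaginase over PBS (x axis) for the 42 genes (y axis, by role). Coloured points are the effects at 2, 8 and 16 weeks, diamonds are their mean, lines are 95% intervals of the mean (unadjusted), and filled diamonds passed an adjusted p of 0.05. Ctsl at 0.95, Npc1 at 0.53 and Atp6v1h at -0.29 have filled diamonds, and the other 39 lie between -0.23 and 0.28.

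At single ages 1 member was called. It was Ctsl at 2 weeks, where 0.432% of all genes were called. No member was called at 8 weeks or 16 weeks, where 0.364% and 0.234% of all genes were. At an unadjusted p under 0.05 the members numbered 5 at 2 weeks (11.9%, against 12.6% of all genes), 8 at 8 weeks (19.0%, against 18.4%) and 4 at 16 weeks (9.52%, against 11.4%). Of the genes to which it gave an adjusted p, DESeq2 called 2.89% at 2 weeks, 4.06% at 8 weeks and 1.99% at 16 weeks. Its members were 3 at 2 weeks (Sqstm1, Ctsl and Npc1, all higher), 2 at 8 weeks (Npc1 higher, Atp6v1h lower) and 1 at 16 weeks (Ctsl, higher). limma-voom called Ctsl at 2 weeks (1.04% of all genes) and 0 members at 8 and 16 weeks (0.327% and 0.234%). The medians of the set were 0.01, -0.06 and -0.02 at 2, 8 and 16 weeks. In a joint test of whether the effect differed between ages, 0 members and 0.0% of all genes were called, and 3 members had an unadjusted p under 0.05 (7.14%, against 9.43% of all genes). DESeq2 and limma-voom called 0 members in that comparison too, with 0.956% and 0.0123% of all genes.

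The intervals show what size of rise the libraries could have missed. For the mean effect the 95% interval had a median half-width of 0.16 on the log2 scale, and its upper bound lay below a 1.5-fold rise for 40 of the 42 genes, the others being Ctsl and Npc1. At single ages the median half-width was 0.27, and the upper bound lay below a 1.5-fold rise for 36, 38 and 38 genes at 2, 8 and 16 weeks. Below a 2-fold rise it lay for 41 genes at each age. These intervals are per gene and not adjusted for their number. Some genes also had all 3 asparaginase libraries on one side of all 3 PBS libraries. At 2 weeks 5 lay higher and 3 lower, where the shares over all genes were 8.09% and 8.64%. At 8 weeks 3 lay higher and 2 lower (7.29% and 8.57% of all genes), and at 16 weeks 7 and 7 (10.1% and 9.63%).

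**Figure D2:**
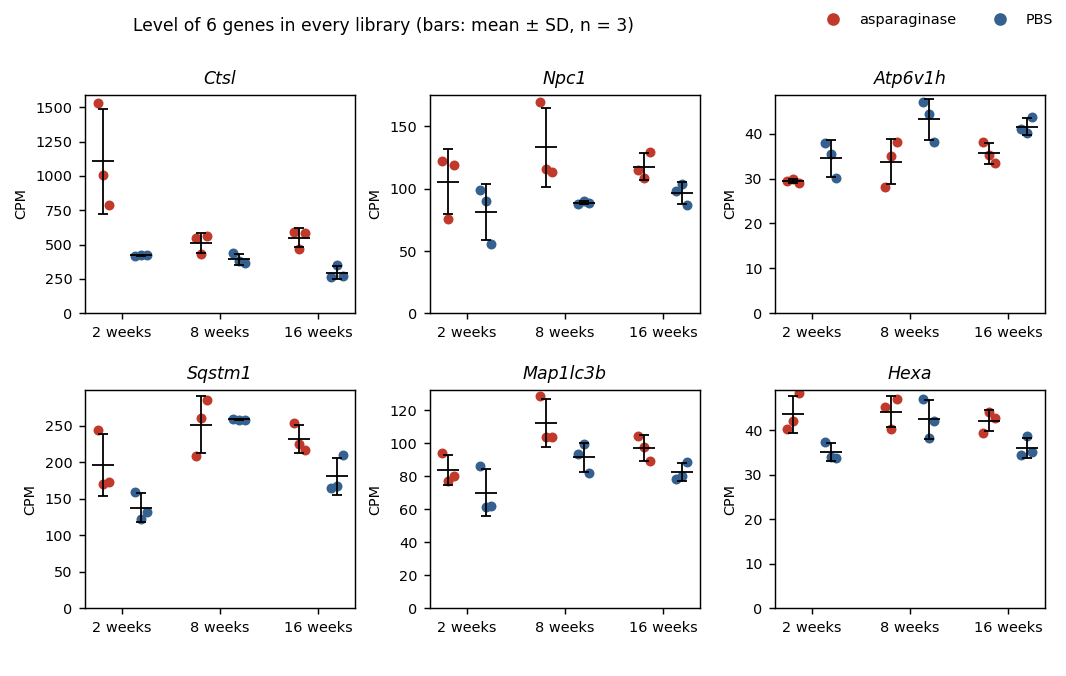
Level in CPM (y axis, from 0) in each library by age (x axis), asparaginase in red at the left and PBS in blue at the right of each age, with bars for mean ± SD of 3 libraries. Ctsl in the asparaginase livers of 2 weeks reached 1527 CPM against at most 425 CPM in PBS livers, and Atp6v1h lay lower in every asparaginase library than in every PBS library of its age.

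Among the enzymes inside the lysosome, Ctsl (ENSMUSG00000021477, GRCm38 chromosome 13, 64359337 to 64370890) was the one whose RNA changed most. At 2 weeks Ctsl stood at 1527, 1004 and 787 CPM in asparaginase livers, against 414, 425 and 424 CPM in PBS livers. At 8 weeks Ctsl stood at 548, 429 and 562 CPM in asparaginase livers, against 436, 379.6 and 363 CPM in PBS livers. At 16 weeks Ctsl stood at 593, 469 and 586 CPM in asparaginase livers, against 267, 349 and 269.7 CPM in PBS livers. All asparaginase libraries exceeded all PBS libraries at 2 and 16 weeks, and at 8 weeks replicate 2 of the asparaginase group lay below the highest PBS library. The log2 fold change was 1.47 ± 0.19 (SE), adjusted p = 0.00997, at 2 weeks. It was 0.42 ± 0.20 (SE), adjusted p = 0.278, at 8 weeks and 0.95 ± 0.20 (SE), adjusted p = 0.0847, at 16 weeks. Averaged over ages it was 0.95 ± 0.11 (SE), adjusted p = 0.00115, and that call held in each alternative run. The 2-week call did not: without asparaginase replicate 1, the highest library, the log2 fold change was 1.07 and the adjusted p was 1. It was also lost without the 3 libraries of mixed sex (adjusted p = 0.334) and with the 2-week libraries fitted alone (adjusted p = 0.161). Pancreatic acinar transcripts moved with the groups of 2 weeks, the 12 markers summing to 396 to 1099 CPM in asparaginase livers and 6.41 to 96.2 CPM in PBS livers, and their part in the Ctsl values was not tested. At 16 weeks the acinar sums were 217, 12.8 and 2606 CPM in asparaginase replicates 1, 2 and 3, against 12.2, 328 and 371 CPM in PBS replicates 1, 2 and 3. These sums overlapped between the groups of 16 weeks, and their part in the Ctsl values was not tested at any age. At 8 weeks they were 9.12 to 143 CPM in asparaginase livers and 9.72 to 10.9 CPM in PBS livers.

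Hexa, the alpha subunit of beta-hexosaminidase, which degrades gangliosides, was the next enzyme by p. At 2 weeks Hexa had 40.2, 42.1 and 48.3 CPM in asparaginase livers, against 37.4, 34.01 and 33.9 CPM in PBS livers. At 8 weeks Hexa had 45.3, 40.4 and 47 CPM in asparaginase livers, against 46.96, 38.4 and 42.01 CPM in PBS livers. At 16 weeks Hexa had 39.5, 44.1 and 42.9 CPM in asparaginase livers, against 34.5, 38.6 and 35.1 CPM in PBS livers. Its asparaginase libraries lay above all PBS libraries at 2 and 16 weeks and among them at 8 weeks. The mean log2 fold change of Hexa was 0.21 ± 0.06 (SE), adjusted p = 0.0737, which missed the threshold. The other 6 genes of this role had mean log2 fold changes from -0.10 to 0.12, and none was called. They were the proteases Ctsb, Ctsd and Ctsh, the carboxypeptidase Ctsa, the glycogen-splitting enzyme Gaa and the cholesterol carrier Npc2. Ctsh was lower in every asparaginase library than in every PBS library at 8 and 16 weeks, with 153, 147 and 152 CPM in asparaginase livers against 217, 163 and 161 CPM in PBS livers at 8 weeks. Its mean log2 fold change was -0.10 with an interval of -0.25 to 0.05.

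At the lysosomal membrane, Npc1 (ENSMUSG00000024413, chromosome 18, 12189692 to 12236400) was the member called. At 2 weeks Npc1 stood at 123, 75.7 and 119 CPM in asparaginase livers, against 98.8, 89.8 and 56 CPM in PBS livers. At 8 weeks Npc1 stood at 169.9, 116 and 114 CPM in asparaginase livers, against 87.5, 90.4 and 88.9 CPM in PBS livers. At 16 weeks Npc1 stood at 115, 109 and 129.5 CPM in asparaginase livers, against 97.9, 104 and 86.96 CPM in PBS livers. The groups were separated at 8 and 16 weeks and overlapped at 2 weeks, where asparaginase replicate 2 was the second lowest of the 6 libraries. Its log2 fold changes were 0.59, 0.65 and 0.36 at 2, 8 and 16 weeks, none called alone. The mean log2 fold change was 0.53 ± 0.10 (SE), adjusted p = 0.0123. That call was lost with no sex term (adjusted p = 0.0773), with 1 sex term for all ages (0.0735), without the 3 libraries of mixed sex (0.0551) and without the 2 libraries with squamous transcripts (0.141). It was lost too without asparaginase replicate 1 of 8 weeks (adjusted p = 0.0687), which had the highest Npc1 level of all 18 libraries, or without asparaginase replicate 3 of 16 weeks (adjusted p = 0.0652).

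Lamp2, the membrane protein that also takes part in chaperone-mediated autophagy, had values on the low side. At 2 weeks Lamp2 was at 313, 323 and 333 CPM in asparaginase livers, against 426, 324 and 309.7 CPM in PBS livers. At 8 weeks Lamp2 was at 399, 463 and 480.2 CPM in asparaginase livers, against 469, 547 and 456 CPM in PBS livers. At 16 weeks Lamp2 was at 473, 453 and 410.4 CPM in asparaginase livers, against 465, 499 and 516 CPM in PBS livers. The groups overlapped at each age. Its mean log2 fold change was -0.17 ± 0.07 (SE), adjusted p = 0.199. Lamp1 and Mcoln1, the calcium channel of the lysosome, had mean log2 fold changes of -0.04 and -0.07 with intervals of -0.20 to 0.11 and -0.23 to 0.08.

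The 3 subunits of the proton pump, or V-ATPase, lay lower or at the same level under asparaginase, and 1 of them fell. At 2 weeks Atp6v1h (ENSMUSG00000033793, chromosome 1, 5070018 to 5162529) stood at 29.5, 29.8 and 28.97 CPM in asparaginase livers, against 37.9, 35.5 and 30.02 CPM in PBS livers. At 8 weeks Atp6v1h stood at 28.2, 35.01 and 38.1 CPM in asparaginase livers, against 46.96, 44.4 and 38.1 CPM in PBS livers. At 16 weeks Atp6v1h stood at 38.1, 35.2 and 33.5 CPM in asparaginase livers, against 40.9, 40.1 and 43.6 CPM in PBS livers. Every asparaginase library was lower than every PBS library of its age, though at 8 weeks the highest asparaginase and the lowest PBS library were nearly equal. The mean log2 fold change was -0.29 ± 0.06 (SE), adjusted p = 0.0245. The call was lost in 6 of the alternatives, among them without asparaginase replicate 1 of 2 weeks (adjusted p = 0.142), without the 3 libraries of mixed sex (0.15) and without the 2 with squamous transcripts (0.243). The others were without asparaginase replicate 1 of 8 weeks (0.0989), asparaginase replicate 3 of 16 weeks (0.0956) or PBS replicate 3 of 16 weeks (0.0817).

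Atp6v1a, the catalytic subunit of the pump, was not called. At 2 weeks Atp6v1a had 38.95, 44.1 and 47.8 CPM in asparaginase livers, against 51.5, 47.9 and 48.01 CPM in PBS livers. At 8 weeks Atp6v1a had 39.99, 42.9 and 46.5 CPM in asparaginase livers, against 35.2, 45.7 and 42.7 CPM in PBS livers. At 16 weeks Atp6v1a had 38.2, 42.2 and 37.1 CPM in asparaginase livers, against 43.1, 43.9 and 43.7 CPM in PBS livers. Asparaginase libraries lay below PBS libraries at 2 and 16 weeks and among them at 8 weeks. At 2 weeks the highest asparaginase and the lowest PBS library were nearly equal. The mean log2 fold change was -0.13 ± 0.06 (SE), adjusted p = 0.246. For Atp6v0d1, a subunit of the membrane-bound part, the libraries of 2 weeks gave 26.7, 29.8 and 31.2 CPM in asparaginase livers, against 34.9, 28.2 and 30.6 CPM in PBS livers. At 8 weeks Atp6v0d1 gave 37.7, 39.3 and 42.8 CPM in asparaginase livers, against 44.4, 46.1 and 40.3 CPM in PBS livers. At 16 weeks Atp6v0d1 gave 37.03, 41.97 and 36.9 CPM in asparaginase livers, against 39.3, 37.6 and 42.3 CPM in PBS livers. These overlapped at each age, with a mean log2 fold change of -0.12 ± 0.06 (SE), adjusted p = 0.255.

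Among the cargo receptors, Sqstm1 (p62), which binds ubiquitin-tagged cargo and is itself digested with it, had higher values at 2 of the 3 ages. At 2 weeks Sqstm1 stood at 244, 169.8 and 173 CPM in asparaginase livers, against 159.5, 122 and 132 CPM in PBS livers. At 8 weeks Sqstm1 stood at 209, 260.2 and 285 CPM in asparaginase livers, against 259, 258 and 258 CPM in PBS livers. At 16 weeks Sqstm1 stood at 254, 225 and 216 CPM in asparaginase livers, against 165, 167 and 209.9 CPM in PBS livers. The groups were separated at 2 and 16 weeks and overlapped at 8 weeks, where the PBS libraries were nearly equal and the asparaginase libraries spread around them. Its log2 fold changes at 2, 8 and 16 weeks were 0.59, -0.11 and 0.29. The mean was 0.25 ± 0.08 (SE), adjusted p = 0.092, and the joint test of a difference between ages gave an adjusted p of 0.417. Nbr1, the second cargo receptor, had a mean log2 fold change of 0.08 with an interval of -0.06 to 0.22.

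The ATG8 family, whose products are joined to a lipid of the autophagosome membrane and hold the receptors there, was split in direction, and none of its 5 genes was called. At 2 weeks Map1lc3b had 93.99, 77.4 and 80.1 CPM in asparaginase livers, against 86.5, 61.7 and 61.9 CPM in PBS livers. At 8 weeks Map1lc3b had 129, 104 and 104 CPM in asparaginase livers, against 93.5, 99.4 and 81.9 CPM in PBS livers. At 16 weeks Map1lc3b had 105, 97.6 and 89.04 CPM in asparaginase livers, against 78.6, 80.2 and 89.02 CPM in PBS livers. Groups of Map1lc3b (LC3B) were separated at 8 and 16 weeks, with asparaginase the higher, and overlapped at 2 weeks. At 16 weeks the lowest asparaginase and the highest PBS library were nearly equal. The mean log2 fold change was 0.28 ± 0.08 (SE), adjusted p = 0.0601. Its near relative Map1lc3a (LC3A) had lower mean levels under asparaginase at 2 and 8 weeks. At 16 weeks it averaged 19.4 CPM in asparaginase livers and 18.3 CPM in PBS livers. At 2 weeks Map1lc3a had 14.8, 14.9 and 15.6 CPM in asparaginase livers, against 16.5, 14.5 and 16.95 CPM in PBS livers. At 8 weeks Map1lc3a had 16.6, 20.03 and 18.4 CPM in asparaginase livers, against 22.6, 24.9 and 19.8 CPM in PBS livers. At 16 weeks Map1lc3a had 20.5, 20.3 and 17.5 CPM in asparaginase livers, against 14.8, 17.2 and 22.96 CPM in PBS livers. Its groups overlapped at every age, and the mean log2 fold change was -0.17 ± 0.06 (SE), adjusted p = 0.119.

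Gabarapl2, of the GABARAP branch of that family, had low spread between libraries. At 2 weeks Gabarapl2 had 30.4, 29.2 and 30.3 CPM in asparaginase livers, against 33.6, 28.3 and 28.5 CPM in PBS livers. At 8 weeks Gabarapl2 had 37.01, 46.98 and 40.95 CPM in asparaginase livers, against 46.9, 53.2 and 39.5 CPM in PBS livers. At 16 weeks Gabarapl2 had 40.6, 44.7 and 37.8 CPM in asparaginase livers, against 42.6, 42.3 and 49.1 CPM in PBS livers. All 3 ages overlapped, and the mean log2 fold change was -0.14 ± 0.06 (SE), adjusted p = 0.19. Gabarap and Gabarapl1 had mean log2 fold changes of -0.04 and 0.20, with intervals of -0.22 to 0.14 and -0.04 to 0.43.

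None of the 9 genes that start and expand the autophagosome was called. Ulk2, a kinase that starts autophagy beside Ulk1, had the smallest p among them. At 2 weeks Ulk2 had 41.3, 60.8 and 51.3 CPM in asparaginase livers, against 66.1, 50.5 and 52.9 CPM in PBS livers. At 8 weeks Ulk2 had 57.4, 76.1 and 74.03 CPM in asparaginase livers, against 57.1, 78.1 and 74.02 CPM in PBS livers. At 16 weeks Ulk2 had 73.9, 73.1 and 58.8 CPM in asparaginase livers, against 71.4, 75.3 and 86.01 CPM in PBS livers. Its groups overlapped at each age, and its mean log2 fold change was -0.20 ± 0.09 (SE), adjusted p = 0.203. Wipi2, which reads the lipid signal on the growing membrane and brings in the conjugation machinery, was next. At 2 weeks Wipi2 had 44.1, 38.3 and 39.99 CPM in asparaginase livers, against 45.4, 35.1 and 36.5 CPM in PBS livers. At 8 weeks Wipi2 had 55.5, 68.1 and 63.2 CPM in asparaginase livers, against 58.7, 64.5 and 52.97 CPM in PBS livers. At 16 weeks Wipi2 had 64.2, 64.7 and 62.1 CPM in asparaginase livers, against 52.1, 51.1 and 56.2 CPM in PBS livers. The groups overlapped except at 16 weeks, where asparaginase was higher in every library, and the mean log2 fold change was 0.12 ± 0.06 (SE), adjusted p = 0.249. The other 7 (Ulk1, its partner Atg13, the lipid kinase subunits Becn1 and Atg14, the lipid transfer protein gene Atg2a, the lipid scramblase gene Atg9a, and Wipi1) ran from -0.23 for Wipi1 to 0.13 for Ulk1. Ulk1 and Wipi1 also had the widest intervals of the role, -0.12 to 0.38 and -0.52 to 0.07.

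The 7 conjugation genes, whose enzymes attach ATG8 proteins to lipid, had mean log2 fold changes at or below 0, and none was called. Atg3, the E2-like enzyme of this reaction, had 36.1, 30.4 and 33.4 CPM in asparaginase livers, against 49.9, 36.5 and 32.7 CPM in PBS livers at 2 weeks. At 8 weeks Atg3 had 40.6, 51.1 and 47.7 CPM in asparaginase livers, against 60.9, 51.8 and 47.7 CPM in PBS livers. At 16 weeks Atg3 had 46.7, 46.2 and 52.1 CPM in asparaginase livers, against 56.7, 59.98 and 55.5 CPM in PBS livers. Its groups were separated at 16 weeks, asparaginase being lower, and the mean log2 fold change was -0.20 ± 0.08 (SE), adjusted p = 0.166. Atg7, the E1-like enzyme that activates ATG8 and ATG12, had 17.1, 16.8 and 16.6 CPM in asparaginase livers, against 24.4, 16.7 and 15.9 CPM in PBS livers at 2 weeks. At 8 weeks Atg7 had 24.6, 29.3 and 28.6 CPM in asparaginase livers, against 38.2, 40.04 and 25.3 CPM in PBS livers. At 16 weeks Atg7 had 28.7, 23.3 and 22.8 CPM in asparaginase livers, against 21.5, 25.2 and 32.6 CPM in PBS livers. Those groups overlapped throughout, and the mean log2 fold change was -0.23 ± 0.10 (SE), adjusted p = 0.21. Atg4b, Atg5, Atg10, Atg12 and Atg16l1 ran from -0.09 to -0.01. The transcription factor genes Tfeb and Tfe3 had mean log2 fold changes of 0.05 and 0.04, with intervals of -0.14 to 0.24 and -0.11 to 0.19; TFEB and TFE3 are known to be controlled chiefly by their place in the cell, which RNA does not show.

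Bnip3, whose product marks mitochondria for digestion, lay on opposite sides of its PBS level at the adult ages. At 2 weeks Bnip3 had 162, 104 and 153 CPM in asparaginase livers, against 163, 149 and 124 CPM in PBS livers. At 8 weeks Bnip3 had 222, 179.6 and 181 CPM in asparaginase livers, against 156, 151 and 105 CPM in PBS livers. At 16 weeks Bnip3 had 158, 148 and 162 CPM in asparaginase livers, against 193, 162 and 199 CPM in PBS livers. Every asparaginase library was above every PBS library at 8 weeks and below every PBS library at 16 weeks, and at 2 weeks they overlapped. At 16 weeks the highest asparaginase and the lowest PBS library were nearly equal, at 161.5 and 161.98 CPM. The log2 fold changes were 0.51 ± 0.18 (SE), adjusted p = 0.168, at 8 weeks and -0.26 ± 0.18 (SE), adjusted p = 0.634, at 16 weeks. The joint test of a difference between ages gave an adjusted p of 0.489. Bnip3l (NIX), its relative, had a mean log2 fold change of -0.04 with an interval of -0.20 to 0.11.

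Markers of other cells were set beside these results, since macrophages of the liver are rich in lysosomes. In bulk liver, fewer cells of a type and less RNA per cell cannot be told apart. At 8 weeks the 10 Kupffer and macrophage markers summed to 233 to 292 CPM in asparaginase livers and 310.4 to 577 CPM in PBS livers. Their median log2 fold change there was -0.62, with 0 of 10 called. At 2 weeks they summed to 478 to 573 CPM in asparaginase livers and 403 to 579 CPM in PBS livers, and at 16 weeks to 435 to 621 CPM in asparaginase livers and 367 to 554 CPM in PBS livers. At 16 weeks 1 of the 10 was called, as higher, and for the mean effect 1 was higher and 1 lower. The 10 erythroid markers in the table were lower in sum in every asparaginase liver of 8 weeks, at 248 to 305 CPM against 507 to 552 CPM in PBS livers. Of the 7 tested, 0 were called at single ages and 1 was lower for the mean effect, with medians of -0.66, -0.85 and -0.65 on the log2 scale at 2, 8 and 16 weeks. The 8 hepatocyte markers had a median log2 fold change of -0.23 for the mean effect, with 1 lower, and 1 was lower at 2 weeks. Their sums at 2 weeks were 57250 to 90614 CPM in asparaginase livers and 90049 to 99718 CPM in PBS livers. The hepatocyte sums overlapped between the groups at each age. Skeletal muscle markers separated the groups at 16 weeks, with sums of 3.63 to 21.1 CPM in asparaginase livers and 46.8 to 275 CPM in PBS livers. Sums of neutrophil and cholangiocyte markers were separated at 16 weeks too, by less: 2.45 to 2.93 CPM in asparaginase livers against 1.02 to 2.42 CPM in PBS livers for neutrophils, and 24.6 to 28.6 CPM in asparaginase livers against 28.6 to 37.5 CPM in PBS livers for cholangiocytes. The part of these cells in the member values was not tested.

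Between ages more of the set changed. In PBS mice 24 of the 42 genes were higher at 8 than at 2 weeks and 0 were lower, which is 57.1% of the set, with 14.8% of all genes called higher and 16.9% lower. At 16 against 2 weeks 21 genes were higher and 0 lower (13.2% of all genes higher and 14.5% lower). Rises were found for genes of 9 roles at 8 weeks, from the receptor Sqstm1 to the mitochondrial receptor Bnip3l. The median log2 fold change of the set was 0.40 at 8 weeks and 0.36 at 16 weeks, while that of all genes was -0.00904 and -0.00871. At 8 weeks 38 genes had a positive value, and at 16 weeks 38. At an unadjusted p under 0.05 1 gene was lower at 8 weeks, Atp6v1a, and 1 at 16 weeks, Ctsl, which DESeq2 called (14.4% of all genes lower). limma-voom called 24 higher at 8 weeks (15.1% of all genes) and 22 at 16 weeks (13.6%), with 0 lower. The comparisons share the 3 PBS libraries of 2 weeks. Their counts leaned on those libraries: without PBS replicate 3 of 2 weeks 7 genes were called at 8 weeks and 3 at 16 weeks, with 13.7% and 11.5% of all genes called in either direction. Without PBS replicate 2 of 2 weeks they were 15 and 8, with 20.3% and 17.6% of all genes. Without PBS replicate 3 of 16 weeks the count at 16 weeks was 7, with 13% of all genes. The direction was the same in each: the median log2 fold change of the set stayed between 0.31 and 0.49 at 8 weeks, and between 0.26 and 0.47 at 16 weeks, over all alternatives run.

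**Figure D3:**
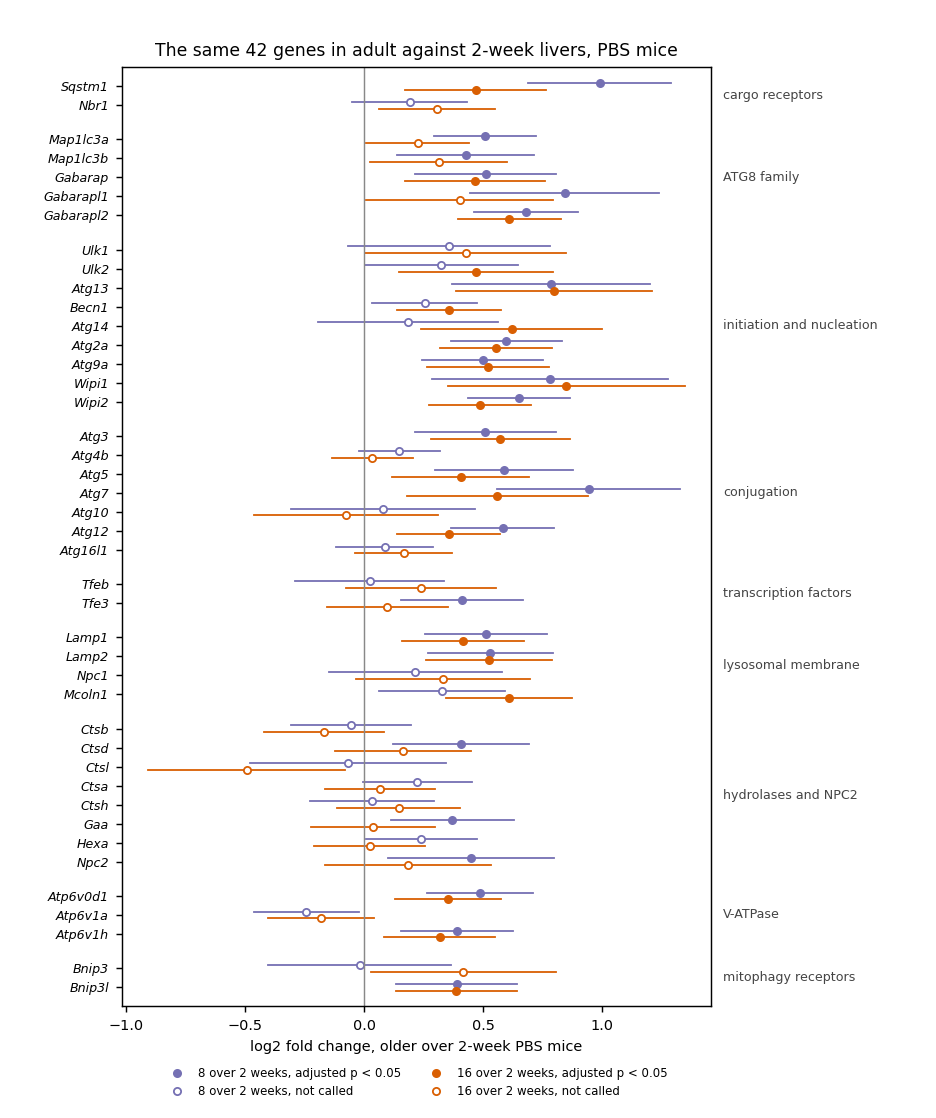
Log2 fold change of PBS livers of 8 weeks (purple) and 16 weeks (orange) over PBS livers of 2 weeks (x axis) for the 42 genes (y axis, by role), with 95% intervals (unadjusted). Filled points passed an adjusted p of 0.05, 24 at 8 weeks and 21 at 16 weeks, all to the right of 0. Hydrolases such as Ctsb and Ctsl lie at or left of 0.

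Of the cargo receptors, Sqstm1 had the smallest p at 8 weeks. It averaged 258 ± 0.592 CPM in PBS livers of 8 weeks and 138 ± 19.4 CPM in those of 2 weeks (SD, n = 3 each). All 3 libraries of 8 weeks lay above all of 2 weeks, and the log2 fold change was 0.99 ± 0.14 (SE), adjusted p = 0.000294. At 16 weeks Sqstm1 averaged 180.4 ± 25.5 CPM, and its log2 fold change over 2 weeks was 0.47 ± 0.14 (SE), adjusted p = 0.0224. Nbr1 was not called at 8 or 16 weeks, at 0.19 and 0.31.

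All 5 ATG8 genes rose at 8 weeks and 2 of them, Gabarap and Gabarapl2, at 16 weeks. Gabarapl2 averaged 46.6 ± 6.85 CPM at 8 weeks and 44.7 ± 3.81 CPM at 16 weeks in PBS livers, above 30.2 ± 3.00 CPM at 2 weeks. Its log2 fold changes were 0.68 ± 0.10 (SE), adjusted p = 0.000412, at 8 weeks and 0.61 ± 0.10 (SE), adjusted p = 0.000803, at 16 weeks, with no overlap between libraries. At 8 weeks the others had log2 fold changes of 0.84 for Gabarapl1, 0.51 for Gabarap, 0.51 for Map1lc3a and 0.43 for Map1lc3b.

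Of the genes that start and expand the autophagosome, 5 rose at 8 weeks and 8 at 16 weeks. In PBS livers Atg2a, the gene of a lipid transfer protein that feeds the growing membrane, stood at 28.9, 23.1 and 22.3 CPM at 2 weeks, 35.9, 36.9 and 37.9 CPM at 8 weeks and 35.2, 33.1 and 35.8 CPM at 16 weeks. Atg9a, the lipid scramblase gene, stood at 45.2, 34.4 and 31.3 CPM at 2 weeks, 49.2, 54.9 and 46.6 CPM at 8 weeks and 45.9, 53 and 52.97 CPM at 16 weeks. Both groups of adults lay above all 2-week libraries for both genes. Log2 fold changes of Atg2a were 0.60 ± 0.11 (SE), adjusted p = 0.00147, at 8 weeks and 0.55 ± 0.11 (SE), adjusted p = 0.00244, at 16 weeks. Those of Atg9a were 0.50 ± 0.12 (SE), adjusted p = 0.00709, at 8 weeks and 0.52 ± 0.12 (SE), adjusted p = 0.00622, at 16 weeks. Wipi2, whose values per library stand above, rose by 0.65 at 8 weeks (adjusted p = 0.000496) and 0.49 at 16 weeks (adjusted p = 0.00306). Atg13 and Wipi1 also rose at 8 and 16 weeks. Ulk2, Becn1 and Atg14 were called at 16 weeks and not at 8, and Ulk1 at neither.

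Among conjugation genes, Atg3, Atg5, Atg7 and Atg12 rose at both adult ages, and Atg4b, Atg10 and Atg16l1 at neither. Atg12, the ubiquitin-like partner of ATG5, stood at 17.4, 14.7 and 18.5 CPM at 2 weeks, 23.1, 27.9 and 23.7 CPM at 8 weeks and 19.8, 19.4 and 25.1 CPM at 16 weeks in PBS livers. All adult libraries lay above those of 2 weeks. Its log2 fold change was 0.58 ± 0.10 (SE), adjusted p = 0.00108, at 8 weeks and 0.35 ± 0.10 (SE), adjusted p = 0.019, at 16 weeks. Atg7 had the highest value of the role at 8 weeks, 0.94, with 34.5 ± 8.03 CPM at 8 weeks against 18.99 ± 4.68 CPM at 2 weeks.

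Among lysosomal membrane genes, Lamp1 and Lamp2 rose at both ages, with log2 fold changes of 0.51 and 0.53 at 8 weeks and 0.42 and 0.52 at 16 weeks. Mcoln1 stood at 20.4, 17.3 and 15.4 CPM at 2 weeks, 23.6, 22.5 and 20.2 CPM at 8 weeks and 25.5, 25.8 and 27.97 CPM at 16 weeks in PBS livers. Every library of 16 weeks was above every one of 2 weeks, while 8 weeks overlapped with 2 weeks at the low end. Mcoln1 had log2 fold changes of 0.33 ± 0.12 (SE), adjusted p = 0.0568, at 8 weeks and 0.61 ± 0.12 (SE), adjusted p = 0.00282, at 16 weeks. Of the 8 genes inside the lysosome, 3 rose at 8 weeks (Ctsd by 0.41, Gaa by 0.37 and Npc2 by 0.45) and 0 at 16 weeks. Ctsb, Ctsl, Ctsa, Ctsh and Hexa were called at neither age. Of the pump, Atp6v0d1 and Atp6v1h rose at both ages and Atp6v1a at neither, its values being -0.24 at 8 weeks and -0.18 at 16 weeks. Bnip3l rose by 0.39 at 8 weeks and 0.39 at 16 weeks, and Bnip3 was not called. Tfe3 rose at 8 weeks, by 0.41, and Tfeb was not called at either age. In all, 17 genes were called at both ages, 7 at 8 weeks alone, 4 at 16 weeks alone and 14 at neither; being called at one age does not show a difference between the adult ages.

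That difference was tested directly. No member was called between 16 and 8 weeks in PBS mice, where 0.413% of all genes were. At an unadjusted p under 0.05 there were 11 members, 3 higher and 8 lower (26.2%, against 15.4% of all genes), and DESeq2 called 1, Sqstm1, as lower (3.68% of the genes to which it gave an adjusted p), while limma-voom called 0 (0.438% of all genes). The 5 with the smallest p were Sqstm1, Map1lc3a, Gaa, Tfe3 and Atg14. Sqstm1 had a log2 fold change of -0.52 ± 0.14 (SE), adjusted p = 0.113, at 16 over 8 weeks. In PBS livers Gaa stood at 45.2, 51.4 and 52.2 CPM at 2 weeks, 67.1, 66.1 and 59.8 CPM at 8 weeks and 43.96, 55.6 and 52.3 CPM at 16 weeks. Tfe3 stood at 15.5, 14.9 and 17.1 CPM at 2 weeks, 20.6, 19.4 and 22.1 CPM at 8 weeks and 17.2, 15.7 and 17.9 CPM at 16 weeks. Atg14 stood at 14.9, 11.7 and 10.02 CPM at 2 weeks, 15.4, 14.5 and 11.9 CPM at 8 weeks and 16.5, 15.7 and 22.3 CPM at 16 weeks. All 16-week libraries lay below those of 8 weeks for Sqstm1, Gaa and Tfe3 and above them for Atg14, and Map1lc3a overlapped. Log2 fold changes were -0.33 for Gaa, -0.31 for Tfe3, -0.28 for Map1lc3a and 0.43 for Atg14, with adjusted p between 0.206 and 0.255.

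The same ages were compared in asparaginase mice, whose libraries are separate from those of PBS mice; this comparison was chosen after seeing the data. At 8 against 2 weeks 19 genes were higher and 1, Ctsl, lower (13.7% and 15.3% of all genes), and at 16 against 2 weeks 18 were higher and 1, again Ctsl, lower (12.9% and 13.7% of all genes). The median log2 fold change of the set was 0.40 at 8 weeks and 0.31 at 16 weeks. Of the 24 genes called at 8 weeks in PBS mice, 17 were called in asparaginase mice, and of the 21 called at 16 weeks, 16 were. That overlap was not counted over all genes, so it cannot be read as particular to the set. Ctsl had a log2 fold change of -1.12 ± 0.19 (SE), adjusted p = 0.00145, at 8 against 2 weeks in asparaginase mice, where its level was 513 ± 72.98 CPM at 8 weeks and 1106 ± 381 CPM at 2 weeks. In PBS mice it was -0.07 ± 0.19 (SE), adjusted p = 0.812. A direct test of whether the asparaginase effect differed between 8 and 2 weeks called 0 members. The share of all genes called in that test is not given here, so the 0 cannot be read as particular to the set. At an unadjusted p under 0.05 the test had 2 members (4.76%, against 9.31% of all genes). The fall of Ctsl rests on the 2-week asparaginase libraries, whose call against PBS was lost without replicate 1. Between 16 and 8 weeks 0 members were called in asparaginase mice, where 4.25% of all genes were. At an unadjusted p under 0.05 there were 2 members (4.76%, against 17.5% of all genes).

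**Figure D4:**
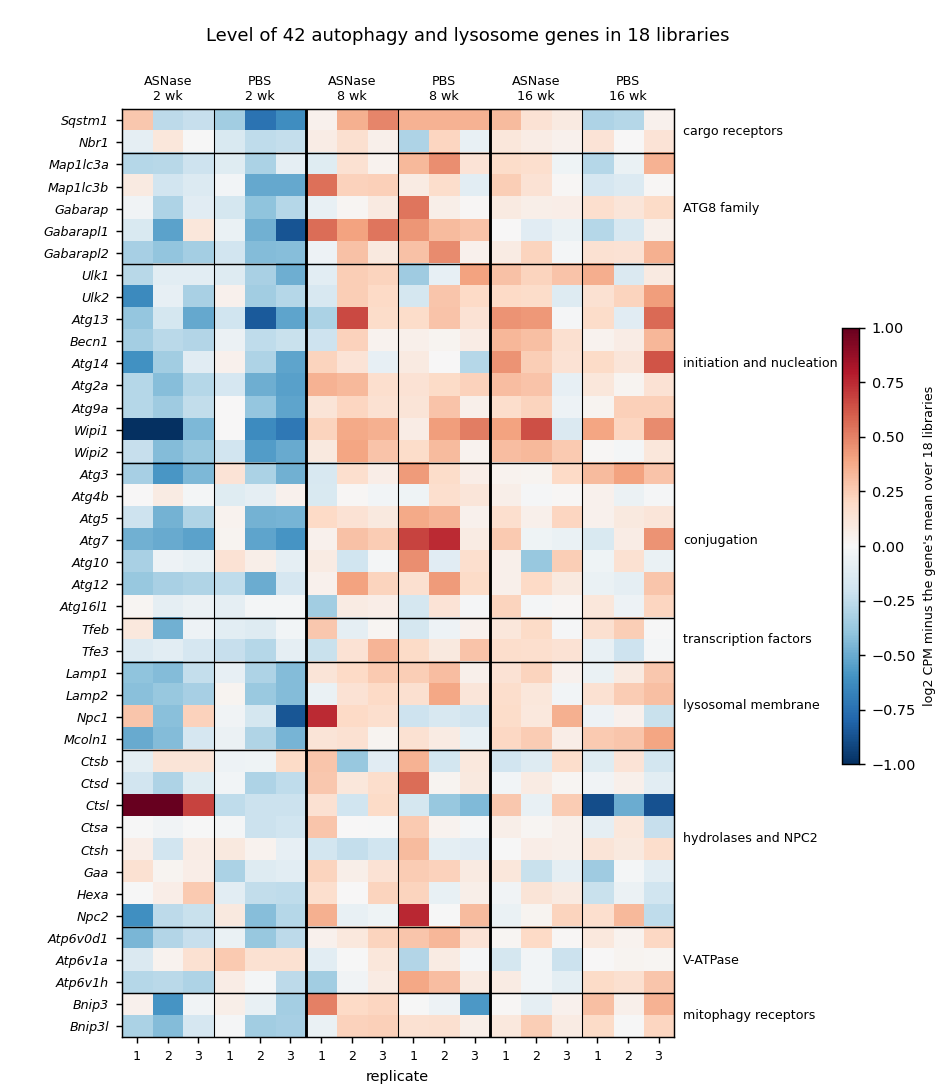
Level of the 42 genes (rows, by role) in the 18 libraries (columns, by age, with asparaginase left of PBS), as log2 CPM minus the mean of the gene over all libraries; the colour scale stops at 1 and -1. The 2-week columns are mostly blue and the adult columns mostly red in both treatments, while Ctsl is darkest red in asparaginase livers of 2 weeks.

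Summed markers of other cells also differed with age. In PBS livers the 9 neutrophil markers summed to 0.762 to 3.22 CPM at 8 weeks and 6.43 to 16.5 CPM at 2 weeks, with 6 of the 7 tested lower. Erythroid markers summed to 507 to 552 CPM at 8 weeks and 569.7 to 1592 CPM at 2 weeks, with 3 of 7 lower and 1 higher. The 8 endothelial and stellate markers summed to 263 to 346 CPM at 8 weeks and 407 to 522 CPM at 2 weeks, with 6 lower. Of the 8 hepatocyte markers 2 were higher at 8 weeks. Kupffer and macrophage markers summed to 310.4 to 577 CPM at 8 weeks and 403 to 579 CPM at 2 weeks, with 1 of 10 lower. Lymphocyte markers summed to 1.99 to 7.62 CPM at 8 weeks and 3.79 to 7.38 CPM at 2 weeks, with 2 of 8 lower. Skeletal muscle markers lay the other way, at 329 to 904 CPM at 8 weeks and 21.3 to 303 CPM at 2 weeks with no overlap, a median log2 fold change of 1.71 and 0 of 11 called. At 16 weeks muscle markers summed to 46.8 to 275 CPM, which overlapped with 2 weeks and lay below 8 weeks. In asparaginase livers all 10 Kupffer and macrophage markers were lower at 8 than at 2 weeks, with a median log2 fold change of -0.89. Of these markers 8 were higher at 16 than at 8 weeks, with a median of 0.85, and 0 were called between 16 and 2 weeks. The part of these cells in the age differences of the set was not tested, nor was that of the rise in major urinary protein transcripts.

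**Figure D5:**
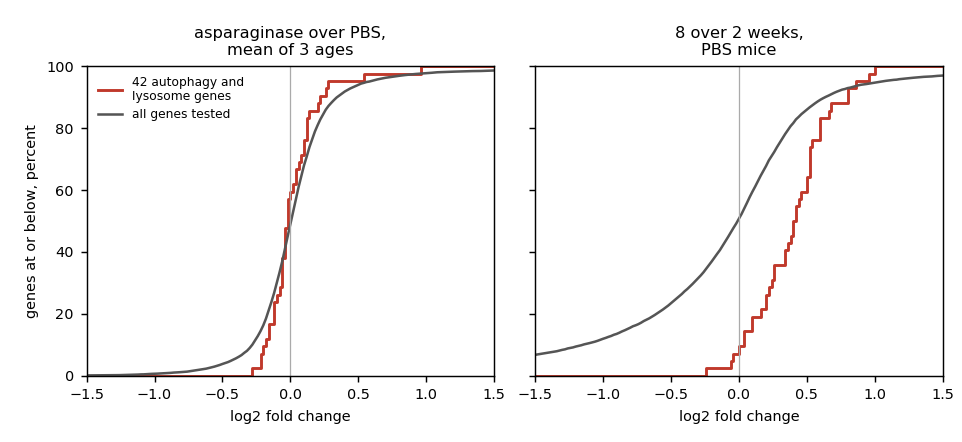
Share of genes (y axis, percent) at or below each log2 fold change (x axis) for the 42 genes (red) and all genes tested (grey), for the mean effect of asparaginase at left and for 8 over 2 weeks in PBS mice at right. At left the curves cross near 0, with medians of -0.04 for the set and 0.00459 for all genes. At right the set lies to the right of all genes over most of its range, with a median of 0.40 against -0.00904.

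The promoter motifs were then read against these effects, as a description of 33 genes. Map1lc3a, Becn1, Atg12, Atg16l1, Npc1, Ctsb, Ctsh, Atp6v1h and Bnip3l had no window and were left out. Npc1 and Atp6v1h, both called for the mean effect of asparaginase, were thus not searched. Of the 6 genes with TCACGTGA, 0 were called for the mean effect of asparaginase, with a median of -0.10, and of the 27 without it 1 was called, Ctsl, with a median of -0.01. At 8 against 2 weeks in PBS mice 3 of the 6 rose, with a median of 0.37, and 17 of the 27, with a median of 0.45. Of the genes with CACGTG 7 of 13 rose at 8 weeks, and 13 of the 20 without. Over all genes tested 14.8% were called higher there. That share was not counted for all genes with and without each motif, so these counts are not a result about the motifs. Lamp1, with 4 copies of CACGTG in the window printed above, rose with age and was not called under asparaginase. Ctsl and Atp6v0d1, the genes with TGATGNAA, had mean effects of 0.95 and -0.12 under asparaginase.

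A wider list of 142 further genes of autophagy and the lysosome, none of them in the set, had 141 that were tested. Under asparaginase 0 of the 141 were called in edgeR's test at any single age, though 11 were higher and 8 lower at 2 weeks at an unadjusted p under 0.05 (13.5%, against 12.6% of all genes), 10 and 15 at 8 weeks (17.7%, against 18.4%) and 5 and 8 at 16 weeks (9.22%, against 11.4%). For the mean effect 2 were higher (1.42%, against 2.55% of all genes) and 7 lower (4.96%, against 2.86%). Of 30 further autophagy genes, Tmem41b, the gene of an endoplasmic reticulum scramblase needed to form autophagosomes, fell by 0.40 on the log2 scale. Atg4a, a protease that trims ATG8 proteins, fell by 0.32. Of 40 further lysosomal enzymes, the beta-mannosidase gene Manba fell by 0.27, the alpha-galactosidase gene Gla by 0.42 and Ctsc, the dipeptidyl peptidase cathepsin C, by 0.39, while Idua, alpha-L-iduronidase, rose by 0.36. Of 26 further membrane genes, Cln8, whose product carries enzymes out of the endoplasmic reticulum, rose by 0.44, and Laptm4a and the lipid transporter gene Abca2 fell by 0.22 and 0.60. Adjusted p for these 9 lay between 0.0183 and 0.0482. None of 15 further pump subunits, 18 receptors for selective autophagy or 12 regulators was called.

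With age the wider list moved in both directions. At 8 against 2 weeks in PBS mice 33 genes were higher (23.4%, against 14.8% of all genes) and 15 lower (10.6%, against 16.9%). At 16 against 2 weeks 39 were higher (27.7%, against 13.2% of all genes) and 16 lower (11.3%, against 14.5%). Receptors for selective autophagy had 8 of 18 higher (44.4%) and 0 lower at 8 weeks, with a median log2 fold change of 0.26, and autophagy genes 9 of 30 higher (30%) and 3 lower, with a median of 0.20. Lysosomal enzymes had 5 of 40 higher (12.5%) and 6 lower (15%), which are near or below the shares of all genes, with a median of 0.03. Membrane genes had 5 of 26 higher (19.2%) and 3 lower, pump subunits 4 of 15 higher (26.7%) and 1 lower, and regulators 2 of 12 higher (16.7%) and 2 lower. Between 16 and 8 weeks edgeR called 0 of the 141, with 10 higher and 5 lower at an unadjusted p under 0.05 (10.6%, against 15.4% of all genes).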

How the data were processed

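Polyadenylated liver RNA was sequenced in 18 libraries, 3 in each of 6 groups of age and treatment. The authors deposited raw gene counts for all libraries in 1 table. The builds GRCm38 and mm10 and the tools TopHat, TopHat2 2.0.9 and DESeq2 are listed per the submitters' processing notes without their roles. For the read counter, the annotation and strand, nothing is stated in the labels or headers used here. The 8-week libraries belong to another series as well, per the labels. No pair of columns was identical.

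Symbols and positions (GRCm38) came by gene identifier from GENCODE M21, which matched 35449 of the 37315 identifiers. Genes were kept by edgeR's filterByExpr (minimum count 10, minimum total 15). A quasi-likelihood model (edgeR 4.0.16, R 4.3.3, TMM scaling) covered the 18 libraries together, with a term for each group and the labelled sex at each age (0.5 male, -0.5 female). Residual degrees of freedom were 9, prior degrees of freedom had a median of 3.71, and the common dispersion was 0.0411. Benjamini-Hochberg adjustment ran over all 16213 genes within a comparison, and adjusted p-values are from this test unless DESeq2 (1.42.0) or limma-voom (limma 3.58.1) is named. The standard error of an effect was taken as its absolute size over the square root of F, and 95% intervals use t quantiles at edgeR's total degrees of freedom. The code was tested on simulated data. Depth, 24690871 to 46949361 counts per library, limits mainly the precision of low genes, and no count-based interval is printed.

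Alternatives were RLE scaling, no filter, DESeq2, limma-voom, no sex term, 1 sex term, fits of single ages, and fits without each library, without the 3 libraries of mixed sex or without the 2 with squamous transcripts. Genes named with values in every library were those called in any asparaginase comparison, filled to 15 by smallest p for the mean effect. For the ages they were the 5 with the smallest p in each comparison, and Bnip3 was added because its role had no named gene. Further pathway genes called for the mean effect were all named. Ctsh, Nbr1 and the other members given without values in every library serve to account for every gene. The members, the lists and the marker genes were chosen with earlier results of these data known. Motifs were searched in RefSeq windows (GRCm38.p6).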

Additional observations from a re-analysis of the deposited data

Results flagged for a closer look

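Bnip3, the gene of a mitochondrial receptor for autophagy, was the member whose groups were separated in opposite directions at different ages. Its log2 fold change of asparaginase over PBS was 0.51 at 8 weeks, with every asparaginase library above every PBS library. It was -0.26 at 16 weeks, with every asparaginase library below every PBS library. That separation at 16 weeks was slight, the highest asparaginase and the lowest PBS library having 161.5 and 161.98 CPM. These levels do not allow for the labelled sex. Neither effect passed the adjusted threshold, and the joint test of a difference between ages gave an adjusted p of 0.489 in edgeR's quasi-likelihood test. Over all genes tested, 7.29% were separated higher at 8 weeks and 9.63% were separated lower at 16 weeks. The share of genes with both was not counted, so the pattern cannot be read as particular to Bnip3.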

How the results depend on the processing

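Over all alternatives the mean effects of the 15 genes named for asparaginase, and the 2-week effect of Ctsl, kept their sign. The medians of the set between ages kept theirs, while those under asparaginase, all near 0, did not at 2 weeks (-0.06 to 0.07), 16 weeks (-0.04 to 0.01) or for the mean effect (-0.05 to 0.02), and lay between -0.11 and -0.02 at 8 weeks. Under asparaginase at 2 weeks DESeq2 called 3 members, against 0 without the 3 libraries of mixed sex and 0 with only the 2-week libraries. At 8 weeks the fit with no filter on low counts called 1 (Npc1) and DESeq2 called 2. At 16 weeks no filter gave 1 (Ctsl) and DESeq2 gave 1. For the mean effect DESeq2 called 6, and 1 was left without the 3 libraries of mixed sex and 1 without the 2 libraries with squamous transcripts. Between 16 and 8 weeks in PBS mice DESeq2 called 1. Leaving out 1 library at a time gave 0 to 1 members at 2 weeks (0 without asparaginase replicate 1 of 2 weeks), 0 at 8 weeks, 0 to 1 at 16 weeks (1 without PBS replicate 3 or asparaginase replicate 1 of 2 weeks), 1 to 4 for the mean effect and 0 in the joint test. In PBS mice it gave 7 to 26 at 8 against 2 weeks, 3 to 24 at 16 against 2 weeks and 0 at 16 against 8 weeks. These fits have fewer libraries, and other causes were not tested. The share of all genes called also changed between fits, as given above for some of them. The counts of members in this paragraph therefore cannot be read alone as particular to the set. No paired analysis was possible because the labels number the libraries in one run from 1 to 18 and replicate numbers give only the order of deposition. The comparison of ages in asparaginase mice was added after seeing the data. Effects at single ages of genes not called there were not refitted one by one. Depth did not limit any member to a few counts; the number of libraries, 3 per group, sets the width of the intervals.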
